A study of Danio rerio with 17 samples.

Results

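The midbrains of 3 Transgenic Mosaic 1 (TM1) zebrafish and 3 Pargana zebrafish, all fed the selenium-supplemented diet, were compared gene by gene. These 6 fish were chosen by the population and diet in their labels, out of 17 fish in the series. All 17 were males 1 year old that had eaten their diet for 10 weeks, with selenium given as selenomethionine. The TM1 and the Pargana fish compared here received 3.1 ppm selenium. The other 11 fish received 0.46 ppm (deficient; 3 TM1 and 3 Pargana fish) or 1.7 ppm (control; 3 TM1 and 2 Pargana fish), and served to estimate the spread within groups and to show whether a difference was also present on other diets. The populations are known here by name only: the labels describe no transgene, genotype or origin. Each array was hybridised with RNA from 1 midbrain. Differences between individual fish, dissections, RNA preparations and hybridisations all enter the SD of a group.

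Selenium is an essential trace element that enters selenoproteins as the amino acid selenocysteine, read from a UGA codon with the help of an element in the untranslated part of the mRNA. Selenoproteins include glutathione peroxidases, thioredoxin reductases and the deiodinases that activate thyroid hormone, and the brain holds on to selenium when the rest of the body runs short of it. Excess selenium is toxic, and selenomethionine can also enter proteins in place of methionine. The zebrafish midbrain holds the optic tectum, which receives input from the retina, and the tegmentum below it.

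Expression was measured on single-colour NimbleGen arrays and deposited as log2 values for 15648 genes, from 3.48 to 15.49. A difference is given throughout as TM1 minus Pargana in log2 units, so 1 unit is a change of 2-fold, and its SE comes from a fit in limma over all 17 arrays. A gene passed when its Benjamini-Hochberg adjusted p over all genes was under 0.05. The arrays gave no detection call. Where values of a group lie near the bottom of the range, the size of a fold change is therefore uncertain.

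Regional genes of the midbrain were well expressed in both groups. EN2, the engrailed transcription factor of the midbrain and hindbrain boundary, had values of 11.68, 12.03 and 12.02 in TM1 fish 1, 2 and 3, against 12.03, 12.11 and 11.85 in Pargana fish 1, 2 and 3. PAX7, a transcription factor of the tectum, averaged 13.21 ± 0.15 in TM1 and 13.38 ± 0.18 in Pargana (SD, n = 3 each). Of 19 measured midbrain and tectum markers 1 passed (5.26%, against 3.87% of all genes). It was the homeobox factor meis2b, which was higher in TM1 by 0.71 (SE 0.16, limma adjusted p = 0.0301). This call was kept in 1 of 6 fits that each left out 1 of the 6 fish compared. None of 29 neuron markers passed, and their median difference was 0.04. An unadjusted p under 0.05 was reached by 3 of them, and by 20% of all genes.

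Markers of other tissues did differ between the groups. Each marker list was summarised per fish by a score: every gene was centred on its average across the 17 fish, and the centred values of the list were averaged. The fast skeletal muscle score was -0.20, -0.24 and -0.42 in TM1 fish 1, 2 and 3, against 1.14, 0.26 and 0.57 in Pargana fish 1, 2 and 3. The score of epidermis and surface epithelium, a list written after skin genes were seen among the largest differences, was -0.16, -0.28 and -0.65 in TM1 fish and 1.11, 0.61 and 1.40 in Pargana fish. The groups did not overlap in either score, and Pargana fish 1 and 3 were the highest. The score of photoreceptor, pineal, lens and pigment epithelium genes ran from -0.23 to -0.15 in TM1 and was 0.61, 0.13 and 0.03 in Pargana fish 1, 2 and 3. The pituitary score was highest in Pargana fish 3, at 0.62, where growth hormone (gh1) was at 11.31, against 4.30 and 4.63 in the other Pargana fish and 4.32 to 4.80 in TM1 fish.

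The summed level of the 56 muscle markers, taken over linear values and given in log2, was 15.66 to 15.82 in TM1 and 15.81 to 16.36 in Pargana, and that of the 26 epidermal genes was 14.18 to 14.39 in TM1 and 14.65 to 15.45 in Pargana. Fast muscle troponin T (TNNT3) was well above the bottom of the range in all 6 fish, at 8.21, 8.18 and 7.39 in TM1 and 11.55, 9.53 and 10.69 in Pargana. In RNA from whole midbrains, more cells of a type and more RNA per cell cannot be told apart. The tissue scores are therefore given beside the results they touch, and their part in those results was not tested.

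**Figure D1:**
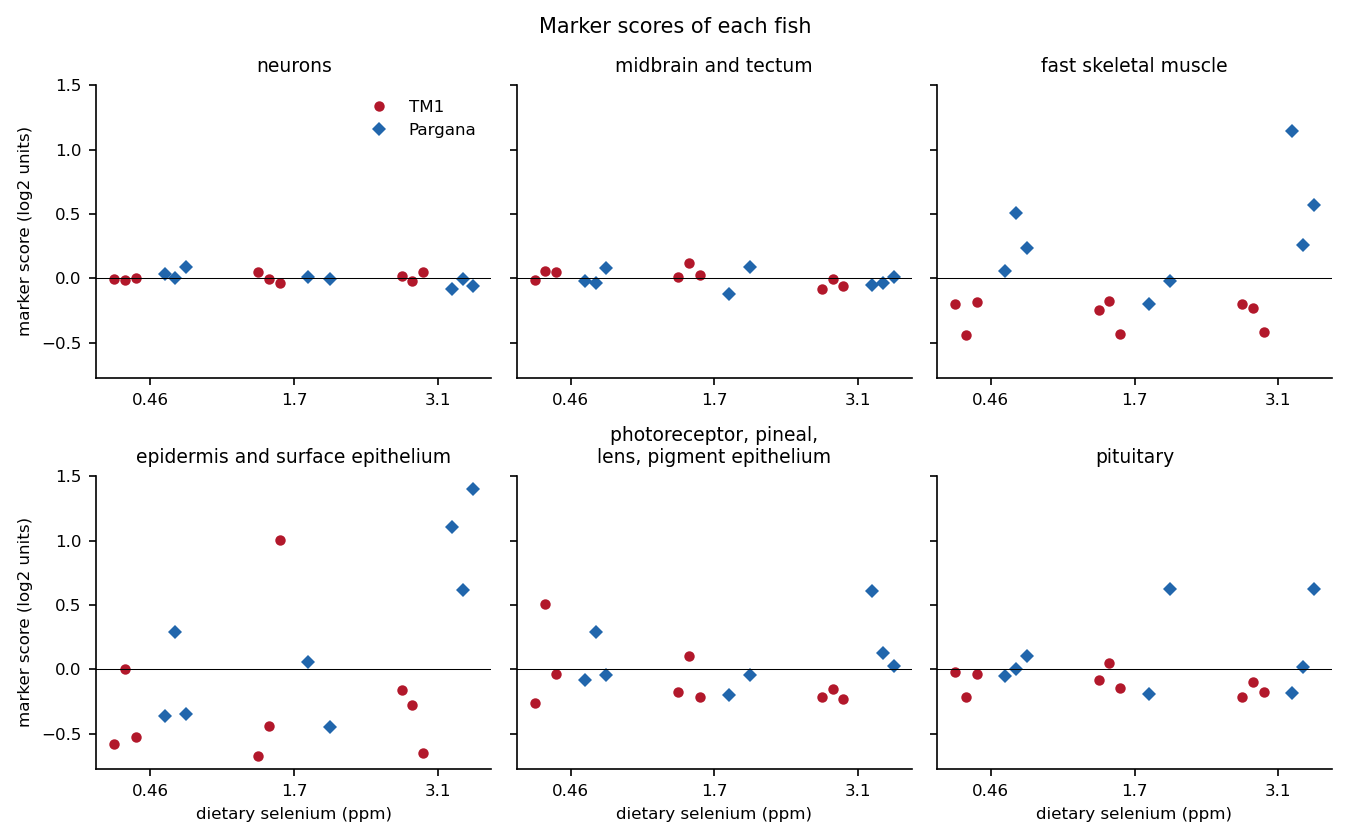
Marker score of each fish (log2 units, vertical axis) by dietary selenium (0.46, 1.7 and 3.1 ppm), with TM1 fish as red circles and Pargana fish as blue diamonds, 1 point per fish. Neuron and midbrain scores lie near 0 in every fish, whereas at 3.1 ppm the muscle and epidermis scores of the 3 TM1 fish all lie below those of the 3 Pargana fish.

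On the supplemented diet 606 of 15648 genes (3.87%) passed between the populations, 257 of them higher (1.64%) and 349 lower (2.23%) in TM1. After quantile normalization the calls split into 337 higher and 277 lower, and after centring of the arrays into 302 higher and 291 lower. An unadjusted p under 0.05 was reached by 3132 genes (20%). Of those that passed, 329 differed by more than 1 log2 unit (2.1% of all genes), 126 of them higher (0.805%) and 203 lower (1.3%) in TM1. For 4411 genes (28.2%) the 3 TM1 values lay entirely on one side of the 3 Pargana values, TM1 being higher in 1812 and lower in 2599. The median difference over all genes was -0.03. The number of genes passing was 237 to 411 when 1 of the 6 fish was left out, lowest without TM1 fish 3 (237), TM1 fish 2 (254), TM1 fish 1 (302), Pargana fish 3 (311) and Pargana fish 1 (392).

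The count depended on the fish left out and on the tissue scores. Without Pargana fish 1 and 3, which have the highest muscle and epidermis scores, 64 genes passed, 46 of them among the 606. The lone remaining Pargana fish is then assumed to vary like the other groups. All 606 genes kept their direction in that fit, and their median difference in the reported direction was 1.01, against 1.04 with all fish. With the muscle score as a covariate 13 genes passed, 9 of them among the 606, and with the epidermis score 41 passed, 36 of them among the 606. The direction was kept by 604 and by 606 of the genes in these 2 fits, with medians of 0.98 and 1.00. The 606 genes were chosen by their difference in these same fish. Their direction and size were therefore largely set in advance in each of these fits, and do not measure how stable the differences are. On the supplemented diet the muscle score of every TM1 fish lay below that of every Pargana fish. Over all fish fitted the populations overlapped, with Pargana control fish 1 at -0.201 and TM1 control fish 2 at -0.181. How much of the population difference this covariate takes up, and why fewer genes passed with it, was not tested.

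**Figure D2:**
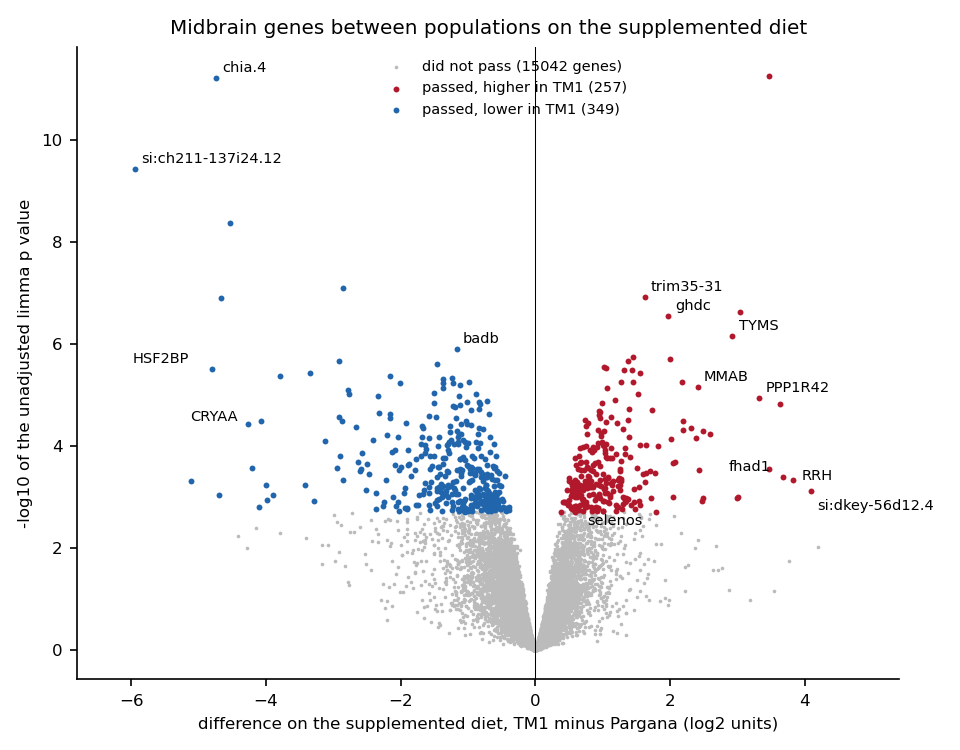
Difference between TM1 and Pargana on the supplemented diet (log2 units, horizontal axis) against -log10 of the unadjusted limma p for every gene tested, with genes higher in TM1 in red, genes lower in TM1 in blue and genes that did not pass in grey. The genes si:ch211-137i24.12 and chia.4 stand far from 0 on the lower side, and TYMS on the higher side. With a difference of 1.62, trim35-31 stands out on the vertical axis rather than by its distance from 0.

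Among genes lower in TM1, si:ch211-137i24.12 (ENSDARG00000094537), a gene without an assigned name, differed most. Its values were 5.83, 5.95 and 5.46 in TM1 fish and 11.75, 11.78 and 11.53 in Pargana fish, a difference of -5.94 (SE 0.38, limma adjusted p = 1.91e-06). The acidic chitinase gene chia.4, whose product cleaves the chitin of fungi, arthropods and parasites, was at 4.43, 4.14 and 4.59 in TM1 and at 9.03, 9.26 and 9.09 in Pargana, lower by a difference of -4.74 (SE 0.22, limma adjusted p = 4.66e-08). With the muscle score as a covariate the difference was -5.39 for si:ch211-137i24.12 and -4.95 for chia.4, and both still passed.

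Expression of HSF2BP and CRYAA separated the groups as widely. HSF2BP encodes a protein that binds heat shock factor and, in mouse, acts in meiotic recombination. It was at 4.91, 5.71 and 4.85 in TM1, against 9.97, 10.08 and 9.81 in Pargana (difference -4.80, SE 0.64, limma adjusted p = 0.00239). CRYAA, the alpha crystallin chaperone of the lens, was at 4.37, 4.03 and 4.46 in TM1, against 8.38, 8.66 and 8.03 in Pargana (difference -4.07, SE 0.67, limma adjusted p = 0.00626). CRYAA belongs to the photoreceptor, pineal, lens and pigment epithelium list. The score of that list was 0.61, 0.13 and 0.03 in Pargana fish 1, 2 and 3 and lay from -0.23 to -0.15 in TM1. Its relation to the values of CRYAA and HSF2BP was not tested. On the other diets the 2 genes were high together in 1 fish, Pargana deficient fish 1, at 9.72 for HSF2BP and 8.01 for CRYAA, whereas every other fish lay between 5.14 and 6.94 for HSF2BP and between 3.86 and 4.92 for CRYAA. They lie next to each other among the tested genes that were placed in the gene order of RefSeq on the GRCz12tu assembly.

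Several of the widest differences were in genes of the muscle and epidermis lists, atp2a1l in the muscle list and cldnb and pkp3a in the epidermis list, so that each is part of the score given for its tissue. The calcium pump gene atp2a1l, of the kind that refills the sarcoplasmic reticulum of fast muscle, was at 6.52, 6.41 and 4.64 in TM1 and at 11.42, 8.38 and 10.59 in Pargana (difference -4.27, SE 0.71, limma adjusted p = 0.00655). Its difference was -2.52 without Pargana fish 1 and 3. Those fish have the highest scores of both lists, so smaller sizes for list members were largely set in advance. The tight junction gene cldnb, a claudin of zebrafish skin, was at 5.22, 5.10 and 4.89 in TM1 and at 9.81, 7.48 and 9.6 in Pargana, and the desmosome gene pkp3a was at 5.94, 6.33 and 5.6 in TM1 and at 9.94, 7.55 and 10.25 in Pargana. Their differences, -3.89 (SE 0.93) and -3.29 (SE 0.81), were -2.41 and -1.60 without Pargana fish 1 and 3. A gene known by its identifier, ENSDARG00000093349, was high in the same fish, at 10.02 and 9.89 in Pargana fish 1 and 3 but 5.01 in Pargana fish 2, and its difference of -4.1 was -0.80 without Pargana fish 1 and 3. Both skin genes were also high in TM1 control fish 3, at 8.57 for cldnb and 9.14 for pkp3a.

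The remaining wide differences on the lower side were uneven between fish or diets. TMBIM1, a membrane protein of the BAX inhibitor family, was at 4.61, 4.59 and 4.17 in TM1 and at 8.57, 8.19 and 8.55 in Pargana (difference -3.98, SE 0.97, limma adjusted p = 0.0374). The same low level occurred in TM1 deficient fish 1 and 3 (4.04 and 4.30), while TM1 deficient fish 2 was at 9.26 and the TM1 control fish were between 8.04 and 9.16. The TRIM family gene trim35-40 was low in TM1 fish 1 and 2 (4.69 and 4.44) but not in TM1 fish 3 (8.54), against 9.23 to 9.40 in Pargana. For zgc:101810 the values were 5.74, 5.14 and 5.56 in TM1 and 9.29, 8.54 and 8.66 in Pargana (difference -3.35, SE 0.45, limma adjusted p = 0.00246). Its call was kept in all 6 fits that left out 1 supplemented fish, that of trim35-40 in 1 and that of TMBIM1 in 0.

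Among genes higher in TM1, TYMS, the thymidylate synthase that makes the thymidine precursor of DNA, was higher in every fish. It was at 12.31, 12.23 and 12.29 in TM1 and at 9.88, 9.01 and 9.16 in Pargana (difference 2.93, SE 0.34, limma adjusted p = 0.00109). PPP1R42, a regulatory subunit of protein phosphatase found at the centrosome, was at 8.46, 8.46 and 8.22 in TM1 and at 4.97, 5.02 and 5.19 in Pargana (difference 3.32, SE 0.50, limma adjusted p = 0.00388). The natriuretic peptide gene nppb was at 8.96, 8.83 and 9.02 in TM1 and at 5.97, 6.97 and 6.4 in Pargana (difference 2.49, SE 0.43, limma adjusted p = 0.00772). In each of these genes the lowest TM1 value lay more than 1 log2 unit above the highest Pargana value.

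The widest differences on the higher side had larger errors. RRH encodes peropsin, an opsin of the retinal pigment epithelium, and was at 9.45, 9.45 and 8.36 in TM1 and at 6.13, 4.88 and 4.75 in Pargana (difference 3.83, SE 0.84, limma adjusted p = 0.0238). RPE65, the retinoid isomerase of the same epithelium, was higher as well, by 1.27 (SE 0.28, limma adjusted p = 0.0243). However, a second feature named RPE65 was at -0.79 (limma adjusted p = 0.816). Most of the photoreceptor, pineal, lens and pigment epithelium list lay on the other side, with 61 of 79 members below 0. In that list 2 genes passed as higher and 5 as lower. The unnamed gene si:dkey-56d12.4 had the highest difference, 4.1 (SE 0.95, limma adjusted p = 0.0307), with values of 9.80, 9.83 and 8.89 in TM1 and 4.53, 7.23 and 4.47 in Pargana. The forkhead-associated domain gene fhad1 was higher by 3.67 (SE 0.79) and tatdn2, of the TatD nuclease family, by 3.64 (SE 0.56). The Pim-related kinase gene pimr108 was higher by 3.00 (SE 0.72), si:dkey-21e2.4 by 2.60 (SE 0.45) and si:ch211-107m4.1 by 2.44 (SE 0.51). The F-box gene fbxo44.7, at 8.42, 9.36 and 9.51 in TM1, was at 8.33 in Pargana fish 2 but at 5.34 and 4.66 in Pargana fish 1 and 3, and its difference of 2.99 was 0.77 without those 2 fish. In the 6 fits that left out 1 supplemented fish, tatdn2 and si:dkey-21e2.4 always kept the call. RRH kept it in 2, si:dkey-56d12.4, pimr108, si:ch211-107m4.1 and fbxo44.7 in 1, and fhad1 in 0. Single TM1 fish on other diets were low, control fish 2 for fhad1 (5.83) and pimr108 (6.53) and deficient fish 1 for RRH (4.60).

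Features without a symbol reached sizes as large. ENSDARG00000088489 was at 7.75, 7.76 and 8.17 in TM1 and at 4.34, 4.42 and 4.51 in Pargana, a difference of 3.47 (SE 0.16, limma adjusted p = 4.66e-08), and it was close to that size on both other diets (3.43 on the deficient and 3.3 on the control diet). ENSDARG00000079986 differed by 3.47 (SE 0.72). On the lower side were ENSDARG00000079272, at -5.11 (SE 1.12), and ENSDARG00000093292, at -4.70 (SE 1.12).

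**Figure D3:**
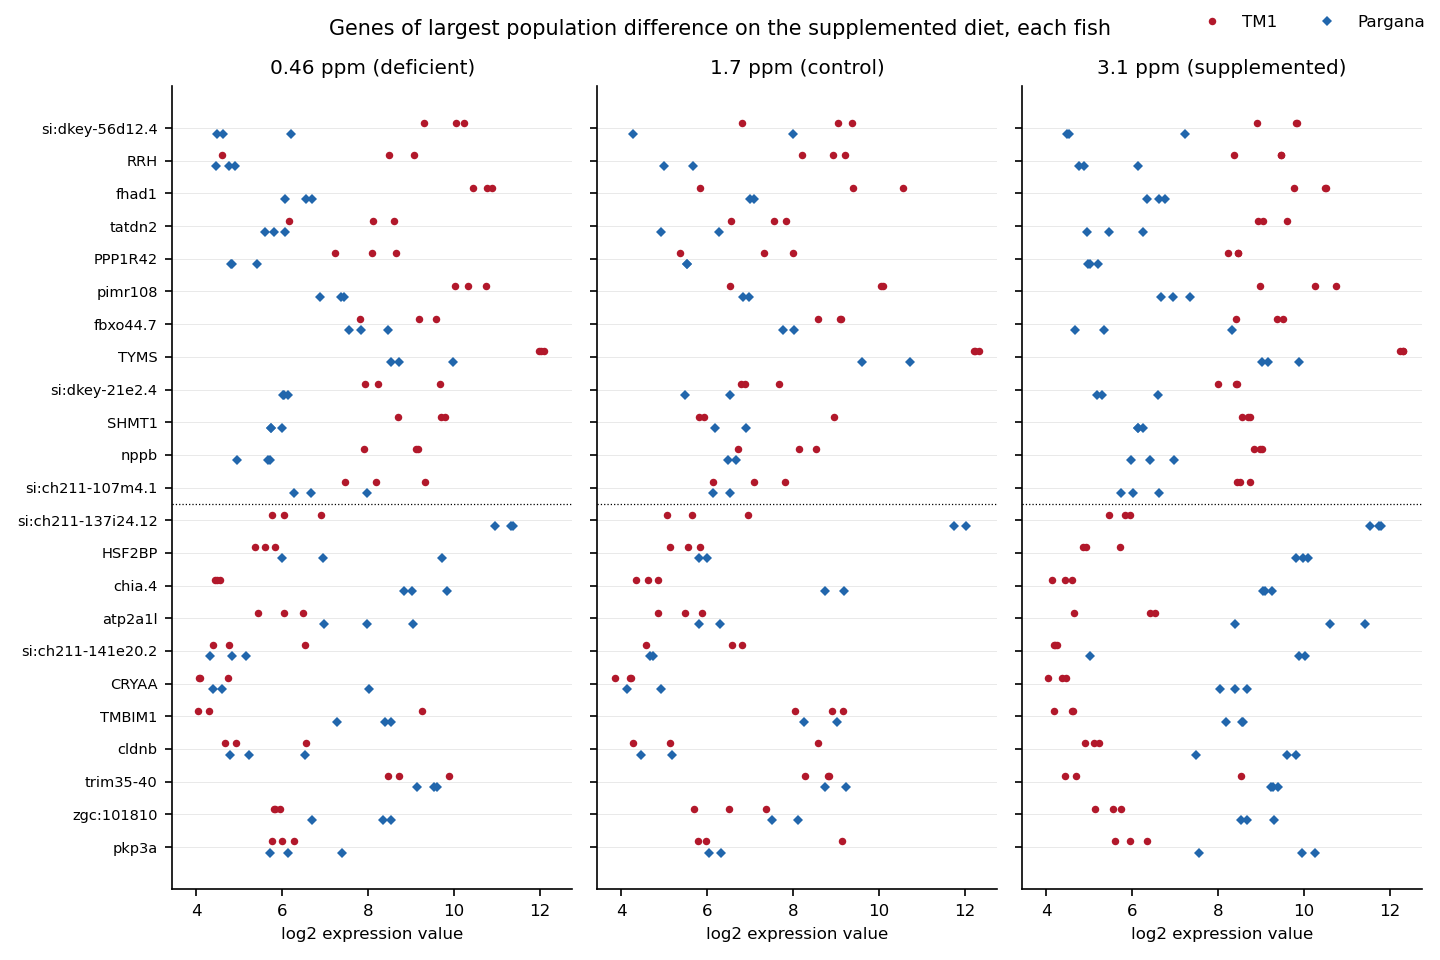
Log2 expression value (horizontal axis) of each fish for the 12 named genes of largest positive and 11 of the 12 of largest negative difference on the supplemented diet, in 3 panels by dietary selenium. Red circles are TM1 fish and blue diamonds Pargana fish. The genes were chosen by their difference at 3.1 ppm, where none shown has overlapping groups and 28.2% of all genes have none. At 1.7 ppm the groups of CRYAA, HSF2BP, cldnb and trim35-40 overlap, among others. No gene shown passed the test of the supplemented difference against that on the other diets.

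Whether these differences were also present in fish on other diets was read from the 6 deficient and 5 control fish, none of which entered the supplemented comparison other than through the estimate of the spread. Among deficient fish 225 genes passed between the populations (1.44%), 126 higher (0.805%) and 99 lower (0.633%) in TM1. Among control fish 149 passed (0.952%), 77 higher (0.492%) and 72 lower (0.460%). Of the 606 genes, 551 (90.9%) had the same sign in deficient fish, 523 (86.3%) in control fish and 496 (81.8%) in both, against 67.6%, 65.6% and 48.6% of all genes. In deficient fish 132 of the 606 passed with the same sign and in control fish 76, and 50 did so on both. The median difference in the supplemented direction was 0.52 on the deficient, 0.48 on the control and 1.04 on the supplemented diet. Genes chosen for passing on one diet are largest there: the 225 genes that passed in deficient fish had a median of 1.13 there and 0.91 on the supplemented diet, and the 149 that passed in control fish had 1.40 there and 0.83 on the supplemented diet. The label code of Pargana deficient fish 3 carries another letter than those of the other Pargana fish, and it was kept in the group its source label names.

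The 12 largest higher genes had the same sign on both other diets in every case, with 8 passing in deficient fish and 1, TYMS, in control fish. Of the 12 largest lower genes 11 had the same sign in deficient and 8 in control fish. The difference in chia.4 was -4.74 in deficient and -4.35 in control fish, and that in si:ch211-137i24.12 was -4.99 and -6.0. SHMT1, the cytosolic serine hydroxymethyltransferase, differed by 3.57 on the deficient, 0.36 on the control and 2.5 on the supplemented diet, TM1 control fish 1 and 2 being at 5.92 and 5.81 and TM1 control fish 3 at 8.95. Of the skin genes, cldnb differed by -0.13 in deficient and by 1.19 in control fish.

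**Figure D4:**
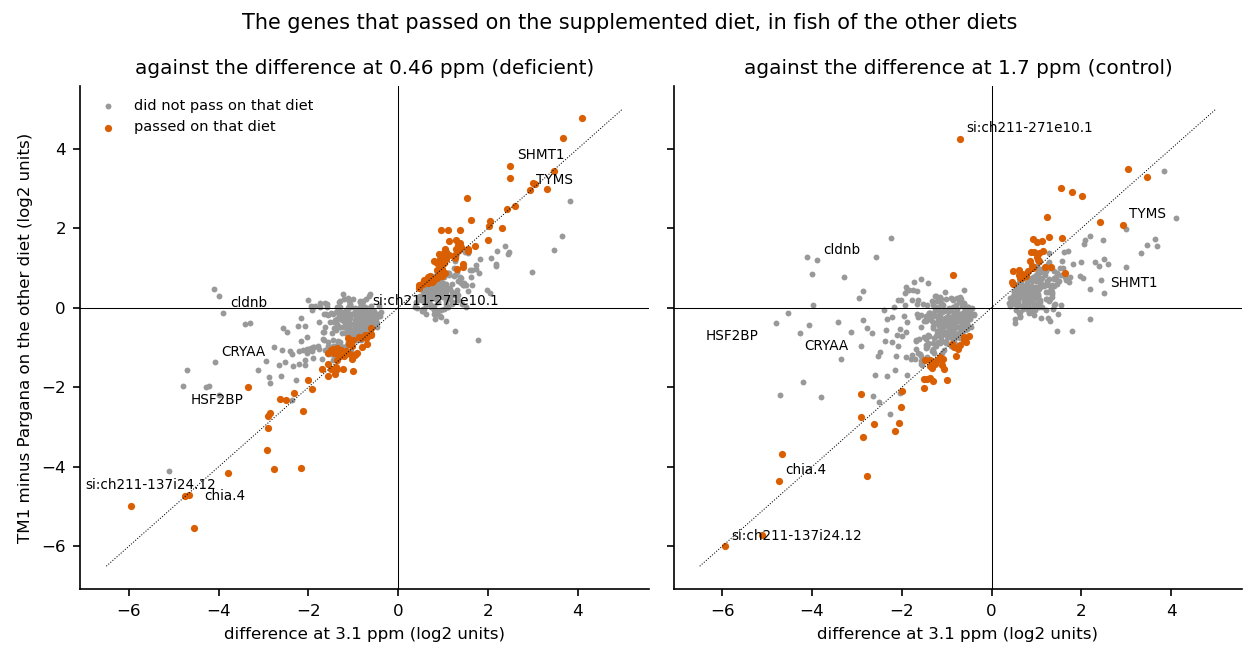
Difference between TM1 and Pargana at 3.1 ppm selenium (log2 units, horizontal axis) against the same difference at 0.46 ppm (left) and 1.7 ppm (right) for the 606 genes that passed at 3.1 ppm, with those that also passed on the other diet in orange and the line of equal differences dotted. The gene chia.4 lies near the line in both panels, whereas SHMT1 lies near it at 0.46 ppm and near 0 at 1.7 ppm.

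Of 18 measured selenoproteins 1 passed, against 3.87% of all genes, and their median difference was -0.16. It was selenos, a selenoprotein of the endoplasmic reticulum membrane that takes part in removing misfolded proteins, at 10.80, 10.95 and 10.91 in TM1 and at 10.39, 10.32 and 10.37 in Pargana (difference 0.53, SE 0.13, limma adjusted p = 0.0341). Its difference was -0.07 in deficient and -0.39 in control fish, where the Pargana fish were at 11.04 and 11.27. The call was lost whenever any of the 6 fish was left out, with a difference that stayed between 0.50 and 0.57.

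Among selenoproteins that did not pass, 4 had an unadjusted p under 0.05. The difference was 0.45 (SE 0.14) for selenot1b of the endoplasmic reticulum and 0.40 (SE 0.14) for the small redox protein selenow1. It was -0.37 (SE 0.12) for SEPHS2, which makes the selenium donor for selenocysteine, and -0.55 (SE 0.26) for gpx3, the extracellular glutathione peroxidase. The groups did not overlap for 9 of the 18 selenoproteins, among them selenot1b, SEPHS2 and gpx3, and for 28.2% of all genes. Cytosolic gpx1a was at 10.72, 10.91 and 11.32 in TM1 and at 11.25, 11.17 and 11.39 in Pargana (difference -0.28, SE 0.23). The plasma carrier selenop was at 13.53, 13.28 and 13.49 in TM1 and at 13.37, 13.16 and 13.33 in Pargana (difference 0.15, SE 0.14), and GPX4, which reduces lipid peroxides, differed by 0.10 (SE 0.17). None of 11 genes of selenium transport and selenocysteine synthesis passed, and their median was -0.01. An unadjusted p under 0.05 was reached by 2 of the 11, and by 20% of all genes. Of 37 other antioxidant enzymes 1 passed (2.7%, against 3.87% of all genes), and their median was 0.11. It was the glutathione transferase gene gstt2, which was lower by a difference of -1.77 (SE 0.45, limma adjusted p = 0.0429). Its call was kept in 0 of the 6 fits that left out 1 supplemented fish.

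Enzymes of one-carbon and sulfur amino acid metabolism passed in 4 of 30 measured genes (13.3%), against 3.87% of all genes, while the median of the list was 0.04. This pathway carries folate-bound carbon units for thymidylate and methionine synthesis. TYMS and SHMT1, which supplies the carbon unit, were both higher in TM1, SHMT1 at 8.69, 8.56 and 8.74 in TM1 and at 6.25, 6.12 and 6.12 in Pargana (difference 2.5, SE 0.60, limma adjusted p = 0.0357). MMAB, which makes the adenosyl form of vitamin B12, was at 9.32, 9.78 and 10.57 in TM1 and at 7.52, 7.37 and 7.54 in Pargana (difference 2.41, SE 0.35, limma adjusted p = 0.00297). The dihydrofolate reductase gene dhfr, whose product regenerates the folate that TYMS oxidises, was lower, at 7.83, 8.13 and 7.72 in TM1 and at 9.53, 9.45 and 8.97 in Pargana (difference -1.43, SE 0.29, limma adjusted p = 0.0181). All 4 differences had the same sign on the other diets, at 2.95 and 2.09 for TYMS, 2.48 and 2.17 for MMAB and -1.09 and -0.89 for dhfr on the deficient and the control diet. TYMS and MMAB kept their calls in all 6 fits that left out 1 supplemented fish, dhfr in 2 and SHMT1 in 0. With the muscle score as a covariate 0 genes of the list passed, and with the epidermis score the same 4 did.

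Among mitochondrial genes 2 of 59 subunits of oxidative phosphorylation and 3 of 49 carriers and assembly factors passed, shares of 3.39% and 6.12% near the 3.87% of all genes, and the medians were 0.00 and 0.01. The 5 genes that passed were lower in TM1. The muscle form of a cytochrome oxidase subunit, cox7a1, was at 8.45, 8.46 and 8.57 in TM1 and at 12.04, 9.82 and 12.31 in Pargana (difference -2.90, SE 0.56). It differed by -3.02 in deficient fish as well, where it also passed. SLC25A4, an ADP/ATP carrier that in mammals is abundant in heart and muscle, was at 8.45, 8.79 and 8.53 in TM1 and at 11.57, 10.10 and 10.35 in Pargana (difference -2.08, SE 0.39, limma adjusted p = 0.0115). Without Pargana fish 1 and 3 the differences were -1.33 for cox7a1, itself a member of the muscle list, and -1.51 for SLC25A4. Those fish were left out for their high muscle and epidermis scores. The complex I subunit NDUFS1 was lower by a difference of -0.61 (SE 0.16), the glycine carrier SLC25A38 by -1.41 (SE 0.30) and the citrate carrier SLC25A1 by -0.53 (SE 0.14). SLC25A4 kept its call in all 6 fits that left out 1 supplemented fish and cox7a1 in 5. SLC25A38 kept it in 2, SLC25A1 in 1 and NDUFS1 in 0.

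Innate defence genes passed in 5 of 47 measured (10.6%), against 3.87% of all genes, 4 lower and 1 higher in TM1. Beside chia.4, the lower ones were the hexose-binding lectin gene hbl2 (difference -2.61, SE 0.55), the acute-phase pentraxin gene crp3 (-2.50, SE 0.51) and complement factor D, cfd (-1.41, SE 0.31). The values of hbl2 were 5.33, 5.52 and 5.50 in TM1 and 7.84, 8.11 and 8.23 in Pargana. TLR2, a receptor for bacterial lipoproteins, was higher, at 10.53, 9.78 and 10.30 in TM1 and at 7.69, 7.93 and 8.45 in Pargana (difference 2.18, SE 0.31, limma adjusted p = 0.00264). Calls were kept in all 6 fits that left out 1 supplemented fish for chia.4 and TLR2, in 3 for crp3, in 2 for hbl2 and in 1 for cfd. With the muscle or the epidermis score as a covariate chia.4 alone passed. In the other immune lists the share that passed was near or below the 3.87% of all genes. IFIH1, a sensor of double-stranded viral RNA, was higher by 1.70 (SE 0.36) and was the 1 gene of 47 of the interferon and antigen presentation list that passed. Of 39 TRIM genes in the list 1 passed, trim35-31, at 9.74, 9.51 and 9.44 in TM1 and at 7.91, 8.0 and 7.91 in Pargana (difference 1.62, SE 0.16, limma adjusted p = 0.000277). The list does not hold trim35-40, named above, which also passed and was lower in TM1 (-3.41). Of 61 chemokine and cytokine genes the chemokine ccl27a was higher by 2.04 (SE 0.49), and il15 and the receptor gene il13ra2 were lower, by differences of -0.94 (SE 0.18) and -1.48 (SE 0.24). Among these, il13ra2 kept its call in all 6 fits that left out 1 supplemented fish, il15 in 5 and ccl27a in 0. The microglia and macrophage list had 1 of 36 members passing, the cathepsin gene ctss1 (1.21, SE 0.31), and its score was 0.27, -0.08 and -0.05 in TM1 against 0.00, -0.15 and 0.03 in Pargana.

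Genes of neurotransmission differed in few members. No member passed among 61 genes of GABA, glycine and glutamate transmission, 51 of synaptic vesicle release or 64 potassium channels, with 7, 6 and 12 members at an unadjusted p under 0.05, fewer in share than the 20% of all genes. Of 22 cholinergic genes 2 passed (9.09%, against 3.87% of all genes), and these were higher in TM1. Most of the list lay on the other side, with 17 of the 22 below 0 and a median of -0.19. SLC18A3, the vesicular acetylcholine transporter, was at 7.44, 7.29 and 7.57 in TM1 and at 5.84, 6.82 and 6.29 in Pargana (difference 1.11, SE 0.22, limma adjusted p = 0.0141), with differences of 0.01 and 0.02 on the deficient and the control diet. The nicotinic receptor subunit CHRNA5 was at 11.31 or more in every TM1 fish and at 10.62 or less in every Pargana fish (difference 1.06, SE 0.19), and differed by 1.23 and 1.18 on the deficient and the control diet. Of 42 monoamine genes 4.76% passed, near the 3.87% of all genes. DBH, which makes noradrenaline from dopamine, was higher by 1.23 (SE 0.28). SPR, the sepiapterin reductase that completes the cofactor of monoamine synthesis, was lower by a difference of -1.22 (SE 0.31), while a second SPR feature was at -0.41 and did not pass. Of 48 neuropeptide genes 2 passed (4.17%, near the 3.87% of all genes). Both were lower, the proglucagon gene gcga (-2.59, SE 0.54) and the opiomelanocortin gene pomcb (-0.53, SE 0.12). Among these neuronal genes, CHRNA5 kept its call in all 6 fits that left out 1 supplemented fish. SLC18A3 kept it in 5, gcga in 3, DBH in 2, pomcb in 1 and SPR in 0.

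Immediate early and activity genes had no member that passed. Of 44 measured 34 lay below 0, their median was -0.21, and 3 reached an unadjusted p under 0.05, while 8631 of all 15648 genes lay below 0 and 20% reached that p. None of 36 circadian clock genes and none of 52 ribosomal protein genes passed, with 4 and 2 at an unadjusted p under 0.05.

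In hormone pathways, CRYM, a binding protein for thyroid hormone in the cytosol, was higher, at 9.43, 9.41 and 9.56 in TM1 and at 8.15, 8.33 and 8.09 in Pargana (difference 1.28, SE 0.28, limma adjusted p = 0.0231). It was the 1 of 12 thyroid hormone genes that passed (8.33%, against 3.87% of all genes), and differed by 1.69 and 1.16 on the deficient and the control diet. Of 36 steroid and stress genes 3 passed (8.33%, against 3.87% of all genes), and the median of the list was -0.19. ESR2, an oestrogen receptor, was higher by 1.00 (SE 0.26), with a second ESR2 feature at -0.11. The steroid dehydrogenase gene hsd3b1 was at 5.53, 7.0 and 5.55 in TM1 and at 8.54, 8.82 and 9.31 in Pargana (difference -2.87, SE 0.47, limma adjusted p = 0.00626). The mitochondrial translocator gene tspo, whose product is linked to steroid synthesis, was lower by a difference of -0.81 (SE 0.17). Of these hormone genes, hsd3b1 kept its call in all 6 fits that left out 1 supplemented fish, tspo in 3, CRYM in 1 and ESR2 in 0.

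Of 52 cell division genes 3 passed (5.77%, against 3.87% of all genes), all higher in TM1, and 38 of the 52 lay above 0, against 7017 of all 15648, with a median of 0.12. The count that passed was 6 after quantile normalization, 5 after centring of the arrays, 9 with array weights, 1 without Pargana fish 1 and 3 and 0 with the muscle score as a covariate. Beside TYMS they were the mitotic kinesin kif11 (1.34, SE 0.25) and the cyclin ccnb3 (0.61, SE 0.15). Of 57 genes of programmed cell death 4 passed (7.02%). Among them, the BH3 genes badb and bik were lower, badb at 8.69, 8.56 and 8.57 in TM1 and at 9.83, 9.78 and 9.72 in Pargana (difference -1.17, SE 0.14, limma adjusted p = 0.00173), and bik by a difference of -1.14 (SE 0.17). APAF1, the scaffold of the apoptosome, was higher by 0.38 (SE 0.10). Both BH3 genes kept their calls in all 6 fits that left out 1 supplemented fish, and APAF1 in 0.

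Cilia and axoneme genes passed in 8 of 80 measured (10.0%, against 3.87% of all genes), 4 in each direction, with a median of -0.15. The higher ones were fhad1, PPP1R42 and the intraflagellar transport genes IFT20 (0.90, SE 0.23) and IFT46 (0.78, SE 0.13). The lower ones included TTLL2, of the tubulin-modifying ligases, at 4.77, 5.58 and 5.17 in TM1 and at 8.18, 7.54 and 8.53 in Pargana (difference -2.91, SE 0.47, limma adjusted p = 0.00592), the tektin TEKT2 (-0.81, SE 0.19) and RFX2, a transcription factor of ciliary genes (-0.45, SE 0.10). PPP1R42, IFT46 and TTLL2 kept their calls in all 6 fits that left out 1 supplemented fish. RFX2 kept it in 2, TEKT2 in 1, and fhad1 and IFT20 in 0. The next 4 lists had shares between 2.41% and 4.48%, near or below the 3.87% of all genes. Of 67 genes of drug and xenobiotic metabolism the cytochrome cyp2ae1 was higher by 1.03 (SE 0.24), and sult3st1 (-1.37, SE 0.20) and cyp2v1 (-0.94, SE 0.20) were lower. Of 83 lipid genes 2 passed, the nuclear receptor pparaa (-1.06, SE 0.26) and the perilipin plin6 (-0.62, SE 0.13). Among 75 genes of the proteasome and of ubiquitin conjugation UBE2G2 (0.76, SE 0.16) and PSMA2 (0.50, SE 0.11) were higher. Heat shock cochaperones split, with DNAJC9 higher (0.75, SE 0.14) and DNAJC1 lower (-0.39, SE 0.10) out of 61 genes. The call of DNAJC9 was kept in 5 of the 6 fits that left out 1 supplemented fish, and that of DNAJC1 in 0.

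**Figure D5:**
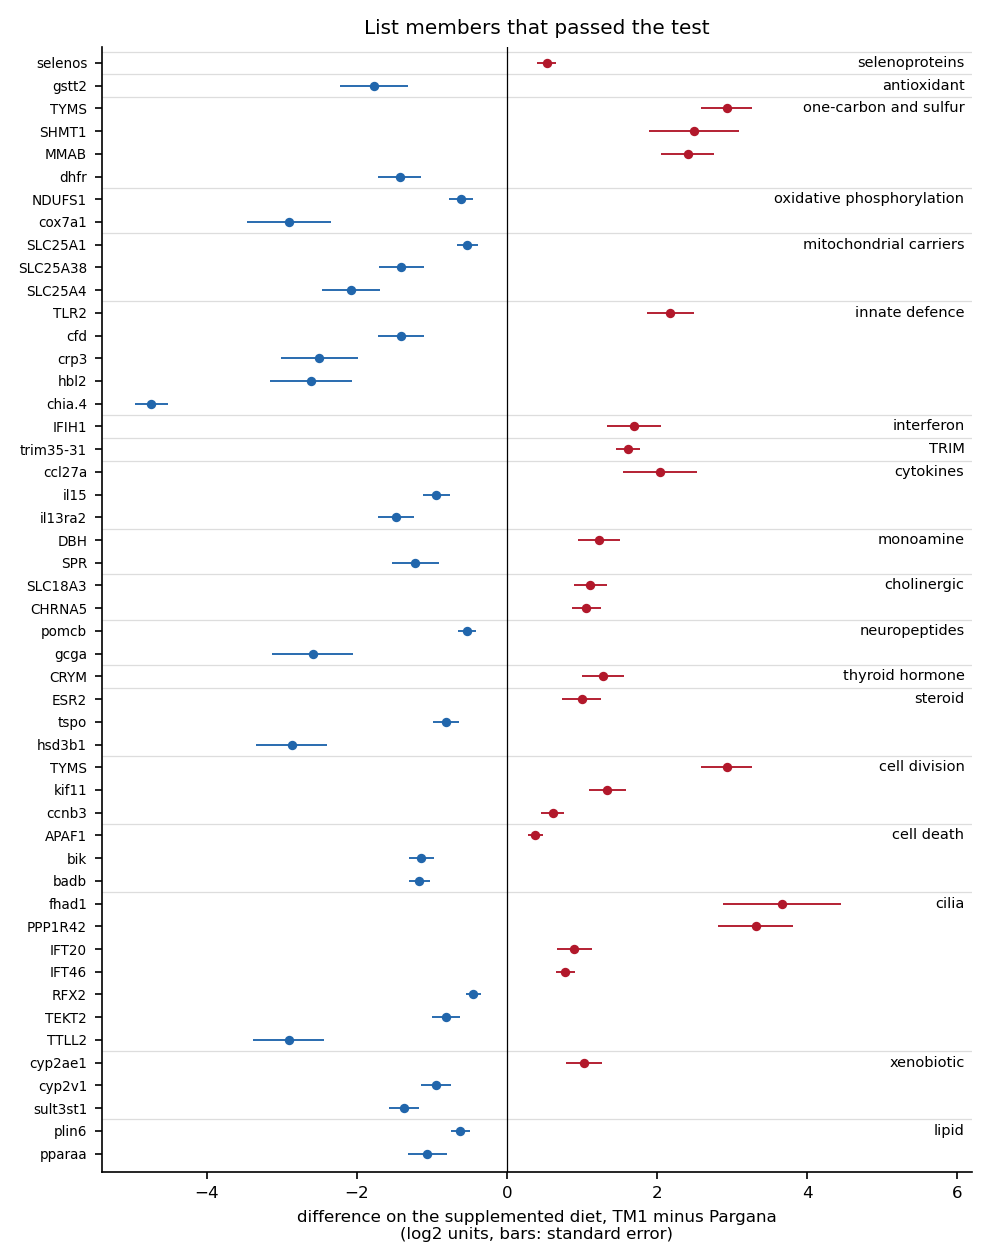
Difference between TM1 and Pargana on the supplemented diet (log2 units, horizontal axis, bars give the SE of the fit) for members of function lists that passed and are reported here, grouped by list, with genes higher in TM1 in red and lower in blue. The heat shock list and the proteasome and ubiquitin list are not drawn. Both directions occur in some groups, such as the cilia and innate defence genes; TYMS is drawn in 2 groups because 2 lists hold it.

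Markers of tissues outside the brain were mostly lower in TM1 fish. Of 56 fast skeletal muscle genes 9 passed (16.1%), all lower, against 2.23% of all genes that passed as lower, 50 lay below 0, against 8631 of all 15648, and the median was -0.64. Beside atp2a1l, cox7a1 and TNNT3 (-2.66, SE 0.45), they were the parvalbumin pvalb4 (-2.52, SE 0.58), the caveola genes cavin4a (-2.16, SE 0.35) and cavin4b (-0.96, SE 0.25), the mitochondrial creatine kinase CKMT2 (-2.11, SE 0.51), the troponin C TNNC2 (-1.69, SE 0.33) and MYBPC2 (-0.70, SE 0.17). Without Pargana fish 1 and 3 the median was -0.42. Those fish have the highest muscle scores, so a smaller size was largely set in advance. Of 26 epidermal genes 24 lay below 0, their median was -1.49 and 5 were lower past the threshold: cldnb, pkp3a, cldni, cfl1l and GRHL2. That list was written after its first genes had been seen, so its count is a description.

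Slow and cardiac muscle genes went in both directions. Of 26 measured 15.4% passed, against 3.87% of all genes, with 2 higher and 2 lower in TM1. Of the 26, 17 lay below 0, and the median was -0.33. The natriuretic peptide genes nppb and nppa were higher, nppa at 6.77, 6.36 and 6.65 in TM1 and at 4.94, 5.22 and 5.26 in Pargana (difference 1.45, SE 0.18, limma adjusted p = 0.00222). The myosin heavy chain gene myh6 was lower, at 4.51, 4.75 and 5.17 in TM1 and at 6.97, 6.89 and 7.04 in Pargana (difference -2.16, SE 0.30, limma adjusted p = 0.00264), while another feature with this name, MYH6, was at 0.50 and did not pass. The troponin T gene TNNT1 was lower as well (-1.63, SE 0.36, limma adjusted p = 0.0255). Of 79 photoreceptor, pineal, lens and pigment genes 8.86% passed, against 3.87% of all genes. Of the 79, 61 lay below 0, against 8631 of all 15648, and the median was -0.37. Those that passed were 2 higher, RRH and RPE65, and 5 lower: CRYAA, the crystallin crybb1l1 (-1.33, SE 0.33), the photoreceptor disc gene PRPH2 (-1.33, SE 0.32), the tyrosinase TYR (-1.09, SE 0.28) and MITF, a regulator of pigment cells (-0.55, SE 0.14).

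Whether a difference on the supplemented diet was unlike that on the other diets was tested as the supplemented difference minus the mean of the control and the deficient difference. Of 15648 genes 4 passed in limma (0.0256%), all with negative values, and 927 (5.92%) had an unadjusted p under 0.05. ALX1, a homeobox factor of craniofacial mesenchyme, was lower in TM1 on the supplemented diet and higher on the control diet. It was at 7.37, 7.89 and 7.53 in supplemented TM1 fish and at 8.24, 8.60 and 8.51 in supplemented Pargana fish (difference -0.85, SE 0.16), whereas TM1 fish were at 8.15 to 8.47 on the deficient and at 8.60 to 8.93 on the control diet. Its difference was 0.18 on the deficient and 0.82 on the control diet. The supplemented difference minus the others was -1.35 (SE 0.20, limma adjusted p = 0.0386). When each of the 17 fish was left out in turn, the call was kept in 4 of 17 fits for ALX1, in 5 for UBE2G1 and in all 17 for ENSDARG00000095735. With tissue scores as covariates ENSDARG00000095735 kept it in 3 of 3 fits and was the only gene to pass in each. It was also the only gene to pass when any 1 TM1 control fish was left out. The fourth gene, ENSDARG00000078938, therefore lost its call in all of those fits.

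In the other 3 genes the highest or lowest values were those of control fish. The gene ENSDARG00000095735 was at 13.56, 13.71 and 13.50 in TM1 control fish and between 8.53 and 9.63 in all other fish, lowest in the supplemented TM1 fish at 9.03, 8.53 and 8.67 (supplemented difference minus the others -2.79, limma adjusted p = 1.43e-05). UBE2G1, a ubiquitin-conjugating enzyme, was at 5.32 and 5.80 in Pargana control fish and between 11.56 and 13.26 elsewhere (-2.75, limma adjusted p = 0.0319). ENSDARG00000078938 was at 11.35, 10.92 and 11.00 in TM1 control fish and between 6.82 and 8.20 elsewhere (-2.03, limma adjusted p = 0.0319).

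Below the threshold, GFI1, a transcriptional repressor, had supplemented values of 7.87, 7.86 and 7.82 in TM1 and 8.81, 8.86 and 8.93 in Pargana (difference -1.02, SE 0.15), with differences of 0.23 on both other diets, and its contrast was -1.25 (limma adjusted p = 0.0523). The DNA damage gene brat1 was at 9.89, 9.81 and 9.78 in TM1 and at 8.84, 8.71 and 8.77 in Pargana on the supplemented diet (difference 1.05, SE 0.14), against 0.21 and 0.01 on the deficient and the control diet (contrast 0.95, limma adjusted p = 0.157). For ghdc the supplemented difference was 1.98 (SE 0.21) and the contrast 1.36 (limma adjusted p = 0.197). The neuronal calcium-binding gene NECAB1 (contrast -0.78), the forkhead gene FOXQ1 (-1.35) and selenos (0.76) shared a limma adjusted p of 0.234. None of the skin or muscle genes reached the threshold either: atp2a1l was at -2.95 (limma adjusted p = 0.495) and cldnb at -4.42 (limma adjusted p = 0.4).

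Genes that passed were looked up among their chromosomal neighbours, in the gene order of RefSeq on GRCz12tu, in which 9943 of the tested genes were placed. Of these 386 passed (3.88%). The next placed gene passed as well for 20 of the 384 that had one (5.21%), and 14 of these pairs moved in the same direction. Beside CRYAA with HSF2BP, they included nppb with nppa, SHMT1 with the topoisomerase TOP3A (0.68, SE 0.15), PPP1R42 with COPS5 (0.87, SE 0.16), and the helicase HELQ (0.87, SE 0.22) with the heparanase HPSE (1.56, SE 0.21). One run of 3 neighbours passed: tube1, at 6.91, 7.14 and 7.18 in TM1 and at 8.44, 8.67 and 8.63 in Pargana (difference -1.50), ccn6 (-1.50) and si:dkey-119m7.4 (-1.29). Their differences were -1.07, -1.53 and -0.87 on the deficient and -1.79, -2.01 and -1.14 on the control diet.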

How the data were processed

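RNA from individual midbrains of 17 zebrafish had been labelled with Cy3 and hybridised to single-colour NimbleGen arrays, per the labels' protocols. The authors deposited log2 values per Ensembl gene after RMA normalization, per the submitters' processing notes, which name the Zv9 build. No detection calls, slide or scan dates were used here, so batches could not be examined. Symbols came from RefSeq (GRCz12tu) for 84.68% of 15649 identifiers, 1 of which was left out of the tests.

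Groups were taken from the source labels. Group means were fitted to all arrays in limma 3.58.1 (R 4.3.3), with two-sided moderated tests and Benjamini-Hochberg adjustment over all genes. The same fit gave the difference on each diet and the supplemented difference minus the mean of the other 2. On simulated data of this comparison, 55.2% of genes changed by 1 log2 unit and 97% of those changed by 2 were recovered. Of genes changed by 0.5 log2 units 17.9% were recovered, so most changes of that size would be missed. For the contrast with the other diets the shares were 7.46%, 41.8% and 87.9% at 0.5, 1 and 2 log2 units.

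The members and the gene lists were chosen with earlier results of these data known. Named were the 12 largest differences in each direction, the 8 smallest p-values in each direction for the contrast with the other diets, up to 2 identifiers without a symbol per direction, passing list members (at most 4 per direction), selenoproteins under an unadjusted p of 0.05 with a few others for comparison, and the first 6 markers of each tissue. Each symbol was represented by its feature of highest mean. Muscle genes beyond the first 4, neighbouring genes, cldni, cfl1l and GRHL2 were named after their values were seen. Alternatives were other normalizations, filters, variance settings, omitted fish and tissue scores as covariates. A few results are not reported here.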

Additional observations from a re-analysis of the deposited data

Results flagged for a closer look

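ALX1, UBE2G1 and 2 features known here by identifier had a difference between TM1 and Pargana on the supplemented diet that was unlike the mean of those on the control and deficient diets, by the limma test of that contrast. ALX1 had a contrast of -1.35, with a supplemented difference of -0.85 against 0.18 on the deficient and 0.82 on the control diet. UBE2G1 had a contrast of -2.75, with differences of 0.54, 6.95 and 1.0 on the deficient, the control and the supplemented diet. The contrast was -2.79 for ENSDARG00000095735, with differences of -0.1, 4.25 and -0.71 on the deficient, the control and the supplemented diet. It was -2.03 for ENSDARG00000078938, whose high values were those of the 3 TM1 control fish.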

How the results depend on the processing

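Of 15648 genes, 606 passed between TM1 and Pargana on the supplemented diet. The count was 593 to 614 with arrays centred or quantile normalized again, 428 without the lowest quartile, 443 with 1 feature per symbol, 588 with a trended variance and 458 from the 6 supplemented arrays alone. It was 1324 with array weights, 64 without Pargana fish 1 and 3, 13 with the muscle score, 8 with 4 marker scores and 41 with the epidermis score, the last chosen after seeing the data. It was 237 to 411 when 1 of the 6 fish was left out. Without the lowest quartile 409 of the 606 genes were fitted, and all of them passed. With 1 feature per symbol 458 of the 606 were fitted, and 443 of them passed. The share of calls that were higher in TM1 was 42.4% as deposited, 54.9% after quantile normalization and 50.9% after centring. The median difference of all genes was -0.035 as deposited, 0.01 after quantile normalization and 0.003 after centring. Of 109 named genes that passed, 42 to 60 lost the call when 1 of the 6 fish was left out, 97 without Pargana fish 1 and 3 and 94 with the epidermis score, each in the same direction. With the muscle score 5 of the 109 kept it.

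For the contrast with the other diets, 4 genes passed. The count was 3 without Pargana fish 1 and 3 and 1 with the muscle score, with 4 marker scores or with the epidermis score, and 1 to 14 when 1 fish was left out, lowest among others without Pargana control fish 1 and highest without Pargana control fish 2.

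Directions turned for 3 named genes: fbxo44.7 was at -0.22 with 4 marker scores, and gpx1a at 0.06 with the epidermis score. GPX4 was at -0.38 with the muscle score, -0.33 with 4 marker scores and -0.04 with the epidermis score, and between -0.02 and 0.18 when 1 supplemented fish was left out. The causes were not tested. No paired analysis was made, because each array holds a different fish and the labels pair none of them. The arrays carry no detection calls, so the size of differences near the lowest values is uncertain.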

Other observations

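Lists of other brain and support cells had few members that passed in limma on the supplemented diet. The myelin protein gene plp1b was at 13.26, 13.37 and 13.32 in TM1 and at 12.61, 12.65 and 12.87 in Pargana (difference 0.61, SE 0.12), and was the 1 of 20 myelin and oligodendrocyte genes that passed. Of 37 blood and endothelial genes 2 were higher in TM1, the water channel AQP8 (0.95, SE 0.23) and the endothelial transcription factor etsrp, at 7.13, 7.1 and 7.12 in TM1 and at 6.21, 6.28 and 6.38 in Pargana (difference 0.83, SE 0.17). The share that passed was 5.0% and 5.41% in these lists, against 3.87% of all genes.

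Of 68 genes of meninges, fibroblasts and collagen 1 passed (1.47%, against 3.87% of all genes). It was the collagen COL6A2, at 6.71, 6.76 and 6.41 in TM1 and at 8.61, 7.46 and 8.11 in Pargana (difference -1.44, SE 0.27). Its Pargana values were highest in fish 1 and 3, as was the muscle score. Of 66 hindbrain and cerebellum genes 1 passed (1.52%), the zinc finger gene ZIC4 (1.2, SE 0.31). Its call was kept in 0 of 6 fits that left out 1 supplemented fish. None of 35 hypothalamus genes passed, with 1 at an unadjusted p under 0.05, against 20% of all genes. Of 54 gonad and germ line genes 7.41% passed, against 3.87% of all genes. The nuclease gene spo11, which starts meiotic recombination, was higher (1.65, SE 0.30), as was the egg coat gene zp3b (1.54, SE 0.38). HSF2BP and the tudor domain gene TDRD6 (-1.3, SE 0.29) were lower. Among these, HSF2BP and spo11 kept their calls in all 6 fits that left out 1 supplemented fish, TDRD6 in 2 and zp3b in 1.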
